A study of Mus musculus with 6 samples.

Results

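The IL-6 family of cytokines was followed at the RNA level in the mouse pancreas through 9 genes: the ligands Il6, Il11, Lif and Osm, the receptor chains Osmr, Il6ra and Il6st, the transcription factor Stat3 and its feedback inhibitor Socs3. They were taken by name, and all 9 were found by Ensembl identifier among the 22556 genes measured. The pancreases came from 6 wild-type C57BL/6 mice, given as 8 weeks old in the labels, with 2 mice in each of 3 groups. Saline mice were the controls. AP mice had acute pancreatitis after repeated hourly injections of cerulein (also spelled caerulein), a peptide that overstimulates the cholecystokinin receptor of acinar cells. PolyI:C+AP mice received the synthetic double-stranded RNA polyI:C before the same cerulein injections. Tissue was collected a day after cerulein was started, and mice given polyI:C without cerulein were not analysed here.

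Cytokines of this family signal through gp130, the shared receptor chain encoded by Il6st. Il6ra and Il11ra1 encode the chains that bind IL-6 and IL-11, LIF uses the chain encoded by Lifr, and oncostatin M uses mainly the chain encoded by Osmr in mice. The assembled receptors activate Janus kinases, which phosphorylate STAT3, and STAT3 then enters the nucleus and switches on target genes. Among these is Socs3, whose product binds gp130 and the kinases and shuts the signal down. RNA levels do not report STAT3 phosphorylation, which was not part of these data.

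The values were TPM, a transcript level scaled by gene length and by the total of each library, so that levels can be compared between genes. The reads behind each library were estimated from the spacing of low TPM values at 3965952 and 3293483 for saline, 6924474 and 8890009 for AP and 8858667 and 10833610 for polyI:C+AP mice, so genes with few transcripts were measured least precisely in the saline mice. Differences were tested with limma on log2(TPM + 0.5) for the 16814 genes that averaged 1 TPM or more. The threshold was an adjusted p (Benjamini-Hochberg, over all these genes) of 0.05 or less together with a change of 2-fold or more. With 2 mice per group the smallest two-sided p of an exact permutation test is 0.333, so each adjusted p depends on limma's pooling of variance over genes. Across all tested genes the median log2 fold change of AP against saline mice was 0.45, and 0.05 with median-of-ratios scaling. Of all genes called in this comparison 81.9% were higher in AP mice with TPM and 56.1% with median-of-ratios scaling. In whole tissue, fewer cells of a type and less RNA per cell cannot be told apart.

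Values were found for 4 of 15 acinar markers (26.7%), among them the transcription factor genes Ptf1a, Bhlha15 and Rbpjl, which were at 40.8 TPM or more in every mouse. The islet markers summed to 1295 to 2327 TPM and the T and NK cell markers to 1.68 to 5.83 TPM. AP replicate 2 had the highest sums for B cell markers, at 42.0 TPM against 2.19 to 13.7 TPM in the other mice, and for mesothelial markers, at 79.8 TPM against 27.5 to 57.1 TPM. Interferon-induced genes summed to 550 and 535 TPM in polyI:C+AP mice, 114 and 170 TPM in AP mice and 25.3 and 22.2 TPM in saline mice.

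Of the 9 genes, 6 reached a mean of 1 TPM and were tested. In AP against saline mice, Lif, Osmr, Stat3 and Socs3 rose and Il6ra fell past the threshold, 5 genes in all, where 22.2% of all tested genes passed, 18.2% upward and 4.03% downward. Il6st missed 2-fold by a small margin. By adjusted p alone all 6 tested genes passed, as did 40.4% of all tested genes. With median-of-ratios scaling, or with voom on the estimated reads, 3 rose and 1 fell, Stat3 being short of 2-fold. Of all tested genes, 1564 of 16755 rose and 1226 fell with median-of-ratios scaling. With voom 1785 of 16814 rose and 977 fell. None of the 6 passed in polyI:C+AP against AP mice with limma, where 0.845% of all tested genes did (0.440% higher and 0.404% lower; 1.23% by adjusted p alone). Osmr alone among the 6 had an unadjusted p under 0.05 there, and voom also called 0 of 6. Il6, Il11 and Osm had too few transcripts to be tested.

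**Figure D1:**
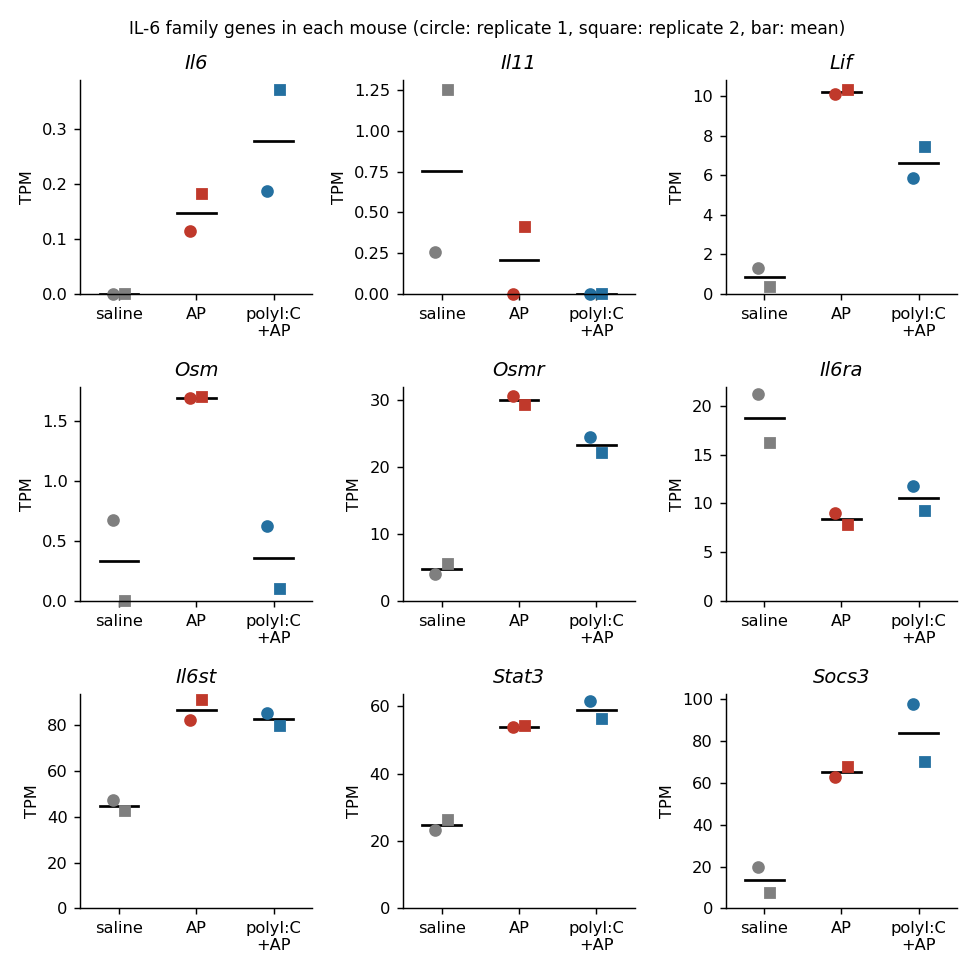
TPM of the 9 genes (vertical axes from 0, on a separate scale for each gene) in the 2 mice of each group, with bars at group means. Lif, Osmr, Il6st, Stat3 and Socs3 sat higher in all 4 mice given cerulein than in both saline mice, Il6ra sat lower, and Il6 did not exceed 0.371 TPM in any mouse.

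Il6, the founding cytokine of the family (ENSMUSG00000025746, plus strand of chromosome 5 in GRCm38, 30013114 to 30019981), was barely present. It was listed at 0 in both saline mice, AP mice had 0.115 and 0.181 TPM, and polyI:C+AP mice had 0.187 and 0.371 TPM. These values stand in the ratio of whole reads, the smallest being 1 and 2 reads for AP and 2 and 5 reads for polyI:C+AP mice, with none further than 0.0126 from a whole read. In the saline mice a count of 0 allows up to 3 reads, or 0.503 and 0.618 TPM, which is above the level in the other 4 mice. A difference in Il6 was therefore not detectable at this depth.

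Il11 encodes a relative that has its own binding chain (ENSMUSG00000004371, chromosome 7, 4772373 to 4782859, minus strand). For Il11, saline mice had 0.255 and 1.25 TPM, AP mice 0 and 0.413 TPM, and polyI:C+AP mice 0 and 0 TPM. Scaled to whole reads, these amount to 8 reads over the 6 libraries, and saline and AP mice overlapped.

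Lif was the most abundant of the 4 ligands in both groups given cerulein. LIF (leukemia inhibitory factor) acts on cells that carry the LIF receptor and gp130, and its gene (ENSMUSG00000034394) lies on chromosome 11 from 4257557 to 4272514, plus strand, close to Osm. For Lif, saline mice had 1.33 and 0.364 TPM, AP mice 10.1 and 10.3 TPM, and polyI:C+AP mice 5.86 and 7.41 TPM. The groups did not overlap, and the polyI:C+AP mice lay between the others. Lif had a log2 fold change of 3.09 for AP against saline (standard error 0.37, limma adjusted p = 0.0011) and 2.49 for polyI:C+AP against saline (adjusted p = 0.0027). For polyI:C+AP against AP it was -0.60, with a 95% interval from -1.49 to 0.30 (adjusted p = 0.56). Lif exceeded Il6 by 88.4 and 57.0 times in TPM in the AP mice, where Il6 rests on 1 and 2 reads.

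Osm (ENSMUSG00000058755, chromosome 11, 4236420 to 4241026, plus strand) encodes oncostatin M, a cytokine made largely by myeloid and T cells. For Osm, saline mice had 0.675 and 0 TPM, AP mice 1.69 and 1.70 TPM, and polyI:C+AP mice 0.626 and 0.0996 TPM. As whole reads these were 3 and 0, 11 and 14, and 5 and 1, none further than 0.092 from a whole read. Both AP mice were above the other 4 mice. Its mean of 0.799 TPM kept Osm out of the test. When genes with 0.5 TPM or more in 2 samples were tested instead, its log2 fold change was 1.52 for AP against saline (limma adjusted p = 0.13) and -1.42 for polyI:C+AP against AP (adjusted p = 0.44).

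Markers of monocytes and macrophages were likewise highest in the AP mice. All 11 genes of this list had values, none at 0 in any mouse, and summed to 694 and 458 TPM in saline, 2709 and 3124 TPM in AP and 768 and 628 TPM in polyI:C+AP mice. Each had its highest mean in AP mice, but by unequal margins. Lyz2 averaged 376, 2004 and 161 TPM in saline, AP and polyI:C+AP mice and made up most of the saline and AP sums. In the same order Cd14 averaged 14.8, 220 and 212 TPM, and Cd68 5.86, 51.7 and 21.3 TPM. Of 8 neutrophil markers 6 had values, with sums of 16.6 and 5.15 TPM in saline, 68.2 and 57.9 TPM in AP and 41.8 and 20.1 TPM in polyI:C+AP mice. Elane, a granule protease gene of neutrophil precursors, was at 0 in the saline and AP mice. S100a8 averaged 7.79 TPM in AP and 8.90 TPM in polyI:C+AP mice, with overlap. The other neutrophil markers with values averaged highest in AP mice. The part of these cells in the Osm values was not tested.

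Among the receptor chains, Osmr rose. It encodes the signaling chain for oncostatin M (ENSMUSG00000022146, chromosome 15, 6813577 to 6874969, minus strand). For Osmr, saline mice had 4.12 and 5.55 TPM, AP mice 30.7 and 29.4 TPM, and polyI:C+AP mice 24.6 and 22.1 TPM. The groups did not overlap, with the polyI:C+AP mice slightly below the AP mice. Osmr had a log2 fold change of 2.53 for AP against saline (standard error 0.15, limma adjusted p = 9.1e-05) and 2.17 for polyI:C+AP against saline (adjusted p = 0.00016). For polyI:C+AP against AP it was -0.36 (95% interval from -0.72 to -0.0022, adjusted p = 0.36), which missed the threshold.

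Il6ra fell. It encodes the IL-6 binding chain, found in its membrane form mainly on hepatocytes and leukocytes (ENSMUSG00000027947, chromosome 3, 89864059 to 89913196, minus strand). For Il6ra, saline mice had 21.3 and 16.2 TPM, AP mice 9.01 and 7.77 TPM, and polyI:C+AP mice 11.8 and 9.24 TPM. Both saline mice were above the 4 mice given cerulein, and both polyI:C+AP mice were above both AP mice. The log2 fold change was -1.10 for AP against saline (standard error 0.19, limma adjusted p = 0.0042) and -0.80 for polyI:C+AP against saline (adjusted p = 0.016), the latter short of 2-fold. Median-of-ratios scaling gave -1.52 and -1.24, both past the threshold. For polyI:C+AP against AP it was 0.31 (95% interval from -0.15 to 0.76, adjusted p = 0.56). The call for AP against saline was lost without saline replicate 1, at -0.91, and without AP replicate 2, at an adjusted p of 0.060. Gm42809, on the other strand, covers 2.80% of the exonic bases of Il6ra, and the strand setting of the counting is not given in the sources used here.

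Il6st, for gp130 itself (ENSMUSG00000021756, chromosome 13, 112464070 to 112510086, plus strand), was the most abundant of the 9 genes in saline and AP mice. For Il6st, saline mice had 47.2 and 42.3 TPM, AP mice 82.2 and 91.2 TPM, and polyI:C+AP mice 85.4 and 79.9 TPM. AP and polyI:C+AP mice overlapped, and both groups were above the saline mice. The log2 fold change of 0.94 for AP against saline (limma adjusted p = 0.00071) and of 0.88 for polyI:C+AP against saline (adjusted p = 0.0010) stayed under 2-fold, and median-of-ratios scaling gave 0.52 and 0.43. For polyI:C+AP against AP it was -0.07 (95% interval from -0.31 to 0.18, adjusted p = 0.84). The ratio of Il6st to Il6ra within a mouse, which does not depend on library scaling, was 2.22 and 2.61 in saline, 9.12 and 11.7 in AP and 7.21 and 8.65 in polyI:C+AP mice.

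Of the receptor chains that share gp130 but are outside the 9 genes, Lifr, which carries the LIF signal, also fell. For Lifr, saline mice had 410 and 454 TPM, AP mice 131 and 132 TPM, and polyI:C+AP mice 253 and 146 TPM. All 4 mice given cerulein were below both saline mice. The log2 fold change was -1.71 for AP against saline (limma adjusted p = 0.0017), -1.16 for polyI:C+AP against saline (adjusted p = 0.0085) and 0.54 for polyI:C+AP against AP (95% interval from -0.02 to 1.10, adjusted p = 0.38). The ratio of Lifr to Osmr within a mouse was 99.5 and 81.8 in saline, 4.28 and 4.51 in AP and 10.3 and 6.61 in polyI:C+AP mice. Both ratios were chosen after the values were seen.

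Il11ra1, the IL-11 binding chain, was likewise lower in all 4 mice given cerulein. For Il11ra1, saline mice had 45.9 and 53.2 TPM, AP mice 28.4 and 31.9 TPM, and polyI:C+AP mice 28.3 and 24.6 TPM. The log2 fold change of -0.71 for AP against saline (limma adjusted p = 0.0070) was short of 2-fold, and median-of-ratios scaling gave -1.13, past the threshold. Cntfr, Il27ra and Il31ra had means under 1 TPM, and Il11ra2 was not analysed here.

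**Figure D2:**
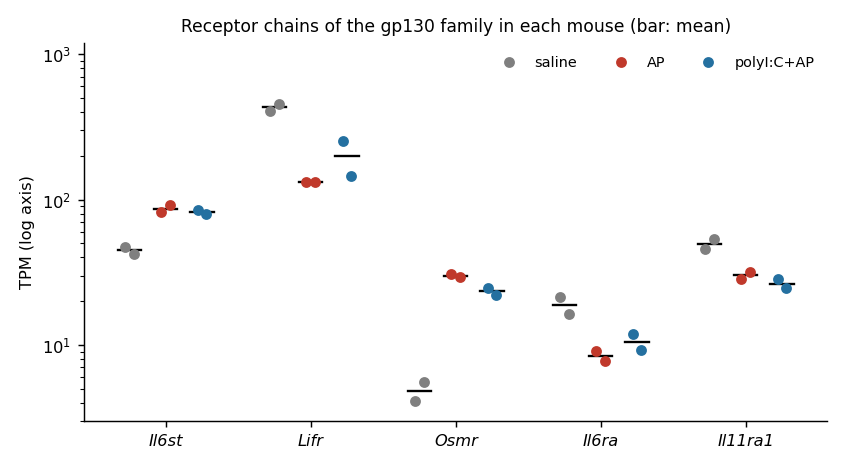
TPM of receptor chains of the gp130 family (vertical log axis) in each mouse, with bars at group means. Osmr was higher in the mice given cerulein than in saline mice, Lifr, Il6ra and Il11ra1 were lower, and Lifr was at 131 TPM or more in all 6 mice.

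Markers of cell types moved along with these receptors. The 6 duct markers summed to 181 and 152 TPM in saline, 1493 and 1454 TPM in AP and 1158 and 1188 TPM in polyI:C+AP mice, the order in which Osmr ran. The 4 acinar markers with values summed to 886 and 674 TPM in saline, 343 and 237 TPM in AP and 455 and 509 TPM in polyI:C+AP mice, the order in which Il6ra and Lifr ran. Within that list Bhlha15 and Rbpjl followed this order of group means, whereas Prss1 was lowest in polyI:C+AP mice (163, 98.6 and 39.2 TPM on average in saline, AP and polyI:C+AP) and Ptf1a was highest there (42.6, 49.3 and 82.8 TPM). The sums of the 7 fibroblast and stellate cell markers, from 630 to 969 TPM, overlapped between groups, although Col1a1, Col1a2, Col3a1 and Lum of that list rose past the threshold in AP mice. The 5 endothelial markers, at most 78.3 TPM in sum, also overlapped. None of these markers was at 0 in any mouse, and the part of these cells in the receptor values was not tested.

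Stat3 (ENSMUSG00000004040, chromosome 11, 100885098 to 100939540, minus strand) encodes the transcription factor at the centre of the pathway and is among its own targets. For Stat3, saline mice had 23.4 and 26.3 TPM, AP mice 53.9 and 54.1 TPM, and polyI:C+AP mice 61.7 and 56.1 TPM. The groups did not overlap, and the polyI:C+AP mice were slightly above the AP mice. Stat3 had a log2 fold change of 1.11 for AP against saline (standard error 0.10, limma adjusted p = 0.00040), 1.23 for polyI:C+AP against saline (adjusted p = 0.00030) and 0.12 for polyI:C+AP against AP (95% interval from -0.12 to 0.37, adjusted p = 0.67). Against saline mice, median-of-ratios scaling gave 0.68 and 0.78 and voom 0.88 and 0.97, all under 2-fold with adjusted p of at most 0.0033. Stat3 shares 72 exonic bases, 0.756% of its exons, with Stat5a on the other strand, which was at 10.6 to 17.8 TPM.

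Socs3 (ENSMUSG00000053113, chromosome 11, 117966079 to 117970047, minus strand) is the classical feedback gene of STAT3. STAT dimers bind the palindrome TTCNNNGAA, and RefSeq promoter windows (GRCm38.p6, from 250 bases before to 50 bases after each start) were searched for it, a search that covers both strands at once. Of 32851 windows 8.3% held it. Among the 9 genes 8 had a window, and a match was found in that of Socs3 only. The part of the Socs3 window upstream of the GENCODE exon of Socs3 that ends within it is shown because it carries a match. That match is the first from the upstream end. The part shown is chr11:117969452-117969616 on the minus strand, with the match in capitals 154 bases before the RefSeq start. It lies within the annotated bounds of Socs3, which extend further upstream to 117970047. The rest of the window is not shown, and further matches in it were not counted. A match describes the sequence, and binding was not measured.
Socs3: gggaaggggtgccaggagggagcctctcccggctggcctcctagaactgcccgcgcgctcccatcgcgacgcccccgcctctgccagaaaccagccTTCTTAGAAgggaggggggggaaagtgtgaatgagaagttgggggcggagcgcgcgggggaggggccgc

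For Socs3, saline mice had 19.8 and 7.17 TPM, AP mice 63.1 and 67.6 TPM, and polyI:C+AP mice 97.9 and 70.0 TPM. The groups did not overlap, although the saline mice were far apart from each other. Socs3 had a log2 fold change of 2.40 for AP against saline (standard error 0.42, limma adjusted p = 0.0045), 2.74 for polyI:C+AP against saline (adjusted p = 0.0029) and 0.34 for polyI:C+AP against AP (95% interval from -0.67 to 1.35, adjusted p = 0.79). Without AP replicate 1 or 2 the adjusted p for AP against saline was 0.068 and 0.069, and without polyI:C+AP replicate 1 that for polyI:C+AP against saline was 0.067. Saline replicate 1, the higher of the saline mice, also had the higher sums of macrophage and neutrophil markers, whose part in the Socs3 values was not tested.

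**Figure D3:**
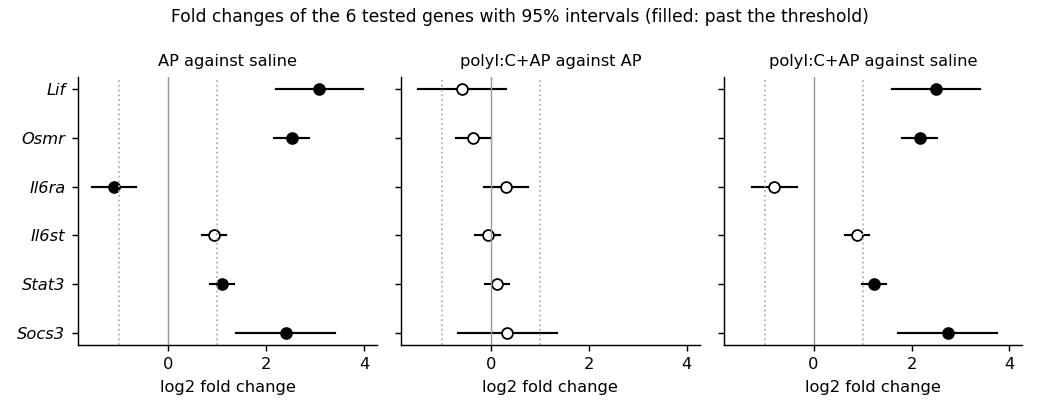
Log2 fold change (horizontal axis) of the 6 tested genes with 95% intervals from limma in 3 comparisons. Dotted lines mark 2-fold and filled points passed the threshold, 5 in AP against saline, 0 in polyI:C+AP against AP and 4 in polyI:C+AP against saline mice.

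In polyI:C+AP against saline mice, Lif, Osmr, Stat3 and Socs3 rose past the threshold and none of the 6 tested genes fell past it, where 19.9% of all tested genes passed, 16.9% upward and 2.97% downward (39.2% by adjusted p alone). Their median log2 fold change was 1.75 for AP and 1.70 for polyI:C+AP against saline, beside 0.45 and 0.48 over all tested genes, and these comparisons share the saline mice. For polyI:C+AP against AP the median was 0.03, beside 0.04 over all tested genes. Groups without overlap were counted as well. In AP against saline mice 5 of the 6 were higher and 1 was lower in this way, where 52.6% and 16.4% of all tested genes were. In polyI:C+AP against saline mice the counts were again 5 and 1, where 54.4% and 14.0% were. In polyI:C+AP against AP mice 3 were higher and 2 lower, where 27.7% and 22.1% were.

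The order of the levels per length differed between groups. In saline mice it was Il6st, Stat3, Il6ra, Socs3, Osmr and Lif, with Il6ra and Socs3 overlapping. In AP mice it was Il6st, Socs3, Stat3, Osmr, Lif, Il6ra and Osm, with no overlap between neighbours. In polyI:C+AP mice Il6st and Socs3 overlapped at the top, followed by Stat3, Osmr, Il6ra and Lif without overlap.

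Many genes followed courses close to those of the 6 tested genes. Among 9409 genes that averaged 10 TPM or more, 2245 had a Pearson r above 0.95 with Stat3 over the 6 mice, 2162 with Osmr, 2024 with Il6st, 1057 with Lif, 871 with Socs3 and 134 with Il6ra. The 3 closest were Rest, Nsmaf and Prkcsh for Stat3, Flot1, Nup107 and Cstb for Osmr, Slfn2, Sf3b3 and Adprh for Il6st, Src, Dnmt1 and E4f1 for Lif, Scara3, Wnk1 and Alad for Socs3, and Gnai1, Cbs and Arntl2 for Il6ra. All points share the 6 libraries and their depth.

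Other genes of the gp130 pathway were taken from a list of 32 ligands, receptors, kinases, adaptors, inhibitors and shedding enzymes, of which 30 had values and 24 were tested. In AP against saline mice 5 rose and 2 fell past the threshold, where 18.2% of all tested genes rose and 4.03% fell, and the median log2 fold change was 0.55 beside 0.45 over all tested genes. In polyI:C+AP against saline mice 7 rose and 2 fell, where 16.9% of all tested genes rose and 2.97% fell, and the median was 0.44 beside 0.48. With median-of-ratios scaling these medians were -0.0074 and 0.055. None passed in polyI:C+AP against AP mice with limma, 1 had an unadjusted p under 0.05, and voom called none.

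Among ligands and kinases, Clcf1 and Tyk2 rose. Clcf1, a ligand of the CNTF receptor, had 1.297 and 0.638 TPM in saline, 3.96 and 4.06 TPM in AP and 3.81 and 3.25 TPM in polyI:C+AP mice (log2 fold change 1.66 for AP against saline, limma adjusted p = 0.011). Tyk2, a kinase gene, had 8.90 and 7.47 TPM in saline, 26.2 and 25.1 TPM in AP and 25.9 and 25.3 TPM in polyI:C+AP mice (1.60 for AP against saline, adjusted p = 0.00025). Jak1 and Jak2 stayed under 2-fold, at 0.50 and 0.82.

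Of the 5 tested inhibitors on the list, Socs2 and Ptpn2 passed the threshold upward in AP against saline mice. Socs2, best known from growth hormone signaling, had 5.41 and 3.36 TPM in saline, 18.3 and 17.9 TPM in AP and 13.6 and 16.5 TPM in polyI:C+AP mice (log2 fold change 1.96 for AP against saline, limma adjusted p = 0.00074). Ptpn2, for a phosphatase that acts on Janus kinases and STATs, rose by 1.96 in AP against saline (adjusted p = 0.00025) and by 1.69 in polyI:C+AP against saline (adjusted p = 0.00043). Socs1 was at 0 in both saline mice, at 0.384 and 4.25 TPM in AP mice and at 0.938 and 0.249 TPM in polyI:C+AP mice, too low on average to be tested. Cish, Pias3 and Ptpn6 did not pass, with -0.41, 0.56 and 0.66 for AP against saline.

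The enzymes ADAM17 and ADAM10 shed receptors such as that for IL-6 from the cell surface. Adam17 had 12.3 and 14.7 TPM in saline, 31.6 and 33.6 TPM in AP and 29.7 and 31.2 TPM in polyI:C+AP mice (log2 fold change 1.25 for AP against saline, limma adjusted p = 0.00051; 0.83 with median-of-ratios scaling, under 2-fold). Adam10 had 92.9 and 64.6 TPM in saline, 125 and 128 TPM in AP and 224 and 231 TPM in polyI:C+AP mice. Its groups did not overlap, and it was the 1 gene of the list with an unadjusted p under 0.05 for polyI:C+AP against AP (0.85, adjusted p = 0.074). It passed the threshold in polyI:C+AP against saline mice (1.55, adjusted p = 0.00073).

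Genes known to respond to STAT3 were followed through a list of 28, many of which also respond to other factors such as NF-κB. Values were found for 27, and 20 were tested. In AP against saline mice 11 rose and none fell past the threshold, where 18.2% and 4.03% of all tested genes did, and the median log2 fold change was 1.37 beside 0.45 over all tested genes. Without AP replicate 1, or without AP replicate 2, fewer genes of the list rose past the threshold, as did fewer of all tested genes. In polyI:C+AP against saline mice 10 rose and none fell, where 16.9% and 2.97% of all tested genes did, and the median was 1.69 beside 0.48. Without polyI:C+AP replicate 1, fewer genes of the list rose, as did fewer of all tested genes. None passed in polyI:C+AP against AP mice with limma, where the median was -0.04 beside 0.04 over all tested genes. An unadjusted p under 0.05 was found there for 7 of the 20, and for 2337 of the 16814 genes tested. Voom called 3 there, Reg3a and Lrg1 upward and Hp downward, where 112 of the 16814 genes rose and 213 fell.

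The steepest rises in AP mice were those of Lcn2, Timp1 and Junb. For Junb, a subunit of the AP-1 transcription factor, saline mice had 15.2 and 8.42 TPM, AP mice 194 and 216 TPM, and polyI:C+AP mice 179 and 150 TPM (log2 fold change 4.12 for AP against saline, limma adjusted p = 0.00011). For Timp1, an inhibitor of matrix metalloproteinases, saline mice had 9.90 and 1.22 TPM, AP mice 75.7 and 72.5 TPM, and polyI:C+AP mice 53.8 and 42.9 TPM (4.14, adjusted p = 0.0049). Lcn2, for an iron-scavenging acute phase protein, was at 1.84 and 0 TPM in saline mice and at 22.0 and 17.4 TPM in AP mice (4.21, adjusted p = 0.0031). All 3 genes were higher in every mouse given cerulein than in both saline mice.

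In polyI:C+AP against AP mice 9 of the 20 were lower without overlap and 7 higher, where 22.1% and 27.7% of all tested genes were. Il4ra and Hp were among those lower, without passing the test in limma. For Il4ra, a receptor chain for IL-4 and IL-13, saline mice had 3.04 and 4.84 TPM, AP mice 24.1 and 28.5 TPM, and polyI:C+AP mice 13.9 and 14.2 TPM (log2 fold change 2.62 for AP against saline, limma adjusted p = 0.00027; -0.88 for polyI:C+AP against AP, adjusted p = 0.13). For Hp, which encodes haptoglobin, saline mice had 16.6 and 1.28 TPM, AP mice 106 and 62.6 TPM, and polyI:C+AP mice 28.1 and 14.2 TPM (3.90 for AP against saline, adjusted p = 0.018; adjusted p = 0.43 for polyI:C+AP against AP).

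Reg3a, Reg3g and Lrg1 were highest in the polyI:C+AP mice. For Reg3a, a secreted lectin gene induced in stressed acinar cells, saline mice had 2907 and 738 TPM, AP mice 2829 and 2387 TPM, and polyI:C+AP mice 19166 and 22317 TPM. Saline and AP mice overlapped, and both polyI:C+AP mice were above the other 4. The log2 fold change for polyI:C+AP against AP was 2.99 with an adjusted p of 0.067 in limma, and voom gave 2.97 with 0.0098. For its relative Reg3g, saline mice had 617 and 79.5 TPM, AP mice 1623 and 1493 TPM, and polyI:C+AP mice 4528 and 6056 TPM (2.81 for AP against saline, limma adjusted p = 0.034, and 0.067 with median-of-ratios scaling). Reg3 genes are alike in sequence, so reads could be split between them, and Reg3b was not analysed here. For Lrg1, which encodes a secreted glycoprotein, saline mice had 94.8 and 31.2 TPM, AP mice 203 and 193 TPM, and polyI:C+AP mice 487 and 457 TPM (1.85 for AP against saline, limma adjusted p = 0.016; 1.25 for polyI:C+AP against AP, adjusted p = 0.28).

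**Figure D4:**
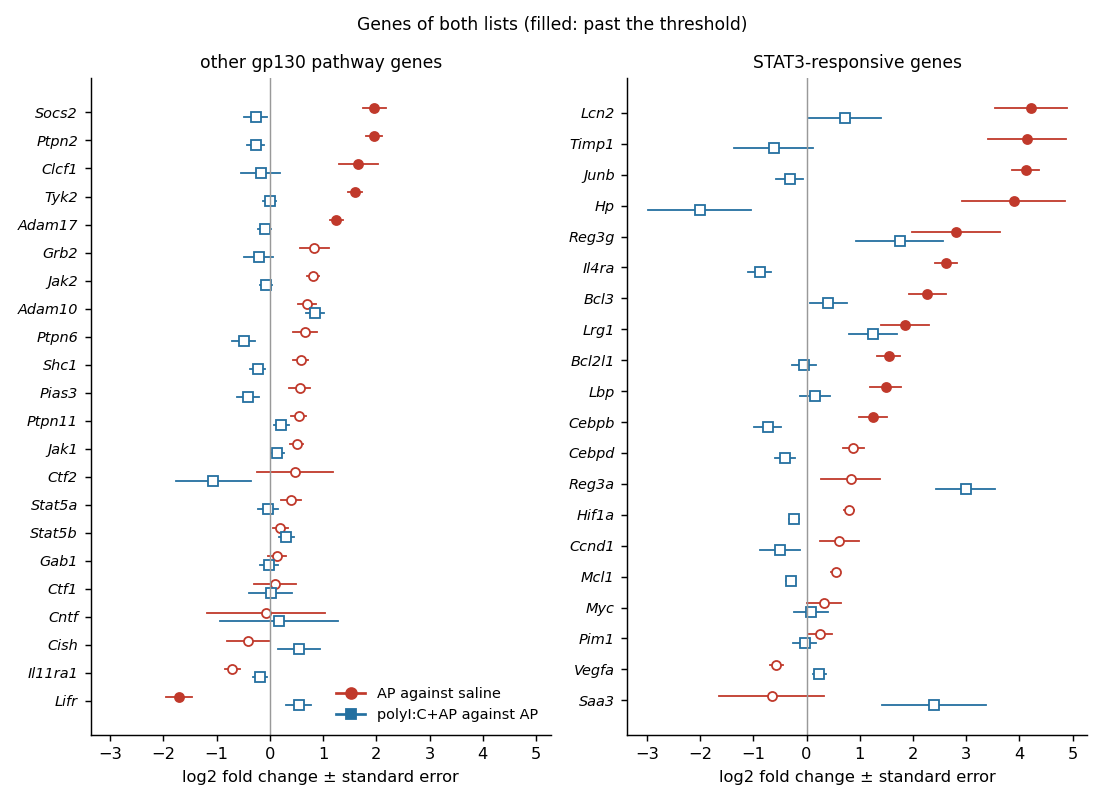
Log2 fold changes ± standard error from limma (horizontal axis) for 22 of the 24 tested gp130 pathway genes and the 20 tested STAT3-responsive genes in AP against saline and polyI:C+AP against AP mice. Filled points passed the threshold, 6 and 11 of the genes shown in AP against saline and none in polyI:C+AP against AP mice.

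Acute phase genes of the list were at very different levels. Fga, Fgb, Fgg, Hpx, Saa1 and Saa2 had means under 1 TPM, unlike Hp and Lrg1, and the fibrinogen genes Fga, Fgb and Fgg were at 0 in both saline mice. For Saa3, saline mice had 39.4 and 3.95 TPM, AP mice 4.39 and 14.1 TPM, and polyI:C+AP mice 43.0 and 45.2 TPM, so saline and AP mice overlapped. Saline replicate 1 was the higher of the saline mice for Saa3, Timp1, Hp, Lrg1, Reg3a and Reg3g, as it was for Socs3.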

How the data were processed

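Pancreas RNA-seq libraries of 6 mice were grouped by the treatment given in their labels. The authors trimmed with Trimmomatic, aligned to mm10 using STAR, counted reads by gene using HTSeq and deposited TPM for each gene and mouse. The step that turned counts into TPM is not given in the sources used here. Symbols, coordinates and exon lengths were taken from GENCODE M21 (GRCm38), in which 22490 of 22556 identifiers were found.

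In R 4.3.3, limma 3.58.1 was fitted to log2(TPM + 0.5) of all 6 mice with 1 coefficient per group and a prior variance following log2(mean TPM × exon length + 1). On simulated data with genes changed 4-fold in AP against saline, 137 of 198 (69.2%) were recovered with 21 false calls among 15731 genes. Reads were drawn around the saline means with the same spread setting for all genes. Far fewer genes were changed than the 3730 of 16814 called in the real comparison, so these rates need not hold there. For the reads per library, 50.9% to 62.3% of low values lay within 0.1 of a whole multiple of the step, against 19.3% to 20.4% with lengths shuffled. For Il6, Il11 and Osm the step was rescaled for each gene so that its values fell near whole reads. With the library steps as estimated, Il6 stood at 0.6 and 1.2 reads in AP and 1.2 and 3 reads in polyI:C+AP mice. The whole reads and the limit for a count of 0 depend on this rescaling. Read numbers and the limit set by a count of 0 cover counting error only.

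The 9 genes and the lists were chosen with earlier results of these data known. From each list, at most the 6 largest changes past the threshold per comparison and direction were to be named, and all other list genes given with values were picked after their values were seen. Changed in turn were the pseudocount, the filter, the scaling, the prior, the test, the samples fitted, a block for replicate number, and each mouse being left out. No source says whether mice were littermates. Each p-value sets a difference against the spread between these mice, pooled over groups and moderated over genes. A few genes of the lists are counted but not reported here by name.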

Additional observations from a re-analysis of the deposited data

How the results depend on the processing

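Of the recomputed fold changes of the 6 tested genes, 289 kept their direction and side of the threshold, 9 lost the threshold and 7 gained it. These include polyI:C+AP against AP mice, where none of the 6 passed with limma and 0.845% of all tested genes did. Staying under the threshold there was likely from the outset and says little about stability. The 1 fold change that turned was that of Il6st in polyI:C+AP against AP mice, which ran from -0.14 to 0.0072 with a mouse left out (0.0072 without AP replicate 2). Leaving out a mouse gave 3 to 5 calls among the 9 genes in AP against saline, the lowest without AP replicate 2, and 3 to 4 in polyI:C+AP against saline mice. For STAT3-responsive genes it gave 5 to 12 calls in AP against saline, 0 to 3 in polyI:C+AP against AP and 5 to 12 in polyI:C+AP against saline mice. Over all tested genes the number of calls also changed when a mouse was left out. The STAT3-responsive genes gave 2 calls in polyI:C+AP against AP mice when only those 4 mice were fitted, and 3 with voom. Of all 16814 tested genes 50 rose and 65 fell in the fit of 4 mice, and 112 rose and 213 fell with voom. By adjusted p alone 40.4% of all tested genes passed in AP against saline and 39.2% in polyI:C+AP against saline mice. Of the 24 tested gp130 pathway genes 14 passed in each of these comparisons, by dropping the 2-fold limit. Other causes were not tested.

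Replicate numbers did not pair the mice: deviations from group means correlated across genes with r from -0.0039 to 0.035. With the replicate number as a block, the 9 genes gave 5 calls in AP against saline, 0 in polyI:C+AP against AP and 4 in polyI:C+AP against saline mice. At 3293483 to 10833610 estimated reads per library, Il6, Il11 and Osm had few reads. Scaled to whole reads for each gene, they rest on 10, 8 and 34 reads in all, which limits what can be said of them.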
